A study of Triticum aestivum with 4 samples.

Results

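*PEX11.3* and *PEX11.4* are the 2 PEX11 genes among the 8 target genes that were assayed by quantitative real-time PCR in leaves of bread wheat (*Triticum aestivum*), and they were taken by their gene names in the deposited table of raw threshold cycles. The groups compared were Misr2 control, Misr2 stress, Line4 control and Line4 stress. Misr2 is a cultivar described as heat tolerant and Line4 a breeding line described as heat susceptible. Both were grown in field plots, where heat was imposed on the stress groups by sowing them later than the controls, and flag leaves were sampled around anthesis. The heat and the sowing date cannot be told apart, and tolerance is represented by 1 cultivar and susceptibility by 1 line. Each group was deposited as 1 sample, with 3 biological replicates in 3 technical wells each according to the methods of the study. This gave 9 wells per gene and group, and 72 of the 288 wells belonged to the PEX11 genes. The groups were taken from the sample titles, which the header of the deposited Ct values and the data statement of the study repeat. The separate treatment label went against the title for 2 of the 4 samples. By that label both Misr2 samples would be controls and both Line4 samples stressed, and every comparison of stress with control below rests on the titles.

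PEX11 proteins sit in the peroxisomal membrane, where they bend and elongate it, the first step of peroxisome division. In Arabidopsis, the elongated peroxisome is then cut by a machinery that includes FIS1A, a tail-anchored protein of the outer surface, and DRP5B, a dynamin-related GTPase that also divides chloroplasts. Leaf peroxisomes carry out part of photorespiration and contain catalase, which removes the hydrogen peroxide formed there. In the RefSeq gene table of the wheat assembly IWGSC CS RefSeq v2.1, the transcript for which the *PEX11.3* primers were designed belongs to the protein-coding gene LOC123097705, and that of *PEX11.4* to LOC123046015. Wheat carries homoeologous copies of each gene on its subgenomes, and a Ct can combine their transcripts.

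A Ct is the cycle at which fluorescence crosses the threshold, and if the template doubles in each cycle, a Ct higher by 1 means 0.5 times as much template. The PCR ran for 40 cycles, and the Ct of the 288 wells ranged from 26.03 to 35.74. The SD between the replicates of a group was 0.029 to 0.090 cycles for *PEX11.3* and 0.017 to 0.120 cycles for *PEX11.4*. The SD between the technical wells of a replicate was 0.060 to 0.105 cycles for *PEX11.3* and 0.077 to 0.294 cycles for *PEX11.4*. In 4 of the 8 combinations of PEX11 gene and group, the replicates spread by no more than means of 3 wells with this well noise would. The limma p-values use a spread shared by the 4 groups, to which these cases contribute no more than repeated wells would. No reference gene was subtracted, so a raw Ct also carries any unequal amount of cDNA, and changes against *Actin-7*, the reference gene of the study, were not analysed here.

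*PEX11.3* was late in the PCR in every group and earliest in unstressed Misr2. Its 3 replicates had a Ct of 33.05, 33.14 and 33.15 in the Misr2 control, and of 35.24, 35.09 and 35.22 in stressed Misr2. In Line4 they had 35.17, 35.19 and 35.22 in the control and 34.97, 34.79 and 34.85 under stress. Misr2 control plants thus stood apart from the 3 other groups, and no replicate of stress overlapped with the control of the same genotype. This was not particular to *PEX11.3*. The mean Ct of the 6 other targets was 29.26 in the Misr2 control, compared with 31.71 in stressed Misr2, 31.46 in the Line4 control and 32.06 in stressed Line4. All 9 wells of stressed Misr2 and all 9 of the Line4 control were above 35 cycles, where little template is left, and these were the 18 PEX11 wells above that value among 27 in the whole panel.

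Under stress, the *PEX11.3* template of Misr2 fell by 2.07 log2 units (limma, SE 0.068, adjusted p = 1.03e-15), from a mean Ct of 33.11 ± 0.054 (SD, n = 3) to 35.18 ± 0.084 (SD, n = 3). That of Line4 rose by 0.32 log2 units (limma, SE 0.068, adjusted p = 0.00027), from 35.19 ± 0.029 (SD, n = 3) to 34.87 ± 0.090 (SD, n = 3). Misr2 minus Line4, the changes were −2.39 log2 units apart (limma, SE 0.097, adjusted p = 3.69e-14). For these comparisons, 8 of the 8 targets passed the threshold in Misr2 (100%), 6 of 8 in Line4 (75%) and 7 of 8 for the difference between genotypes (87.5%). Most targets were thus called in each of these comparisons, and all 8 had less template under stress in Misr2.

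Between genotypes, the Line4 control had 2.08 log2 units less *PEX11.3* template than the Misr2 control (log2 difference −2.08, limma, SE 0.068, adjusted p = 9.75e-16). In this comparison 87.5% of the targets passed, and 75% had less template in Line4. Relative to the mean of the 6 other targets, the *PEX11.3* difference was 0.13 log2 units (limma adjusted p = 0.126). Under stress, Line4 had 0.32 log2 units more than Misr2 (limma, SE 0.068, adjusted p = 0.000339; 0.67 relative to the mean of the 6 other targets), where 87.5% also passed and 50% had more template in Line4. In the order of levels, the Misr2 control was followed by stressed Line4, stressed Misr2 and the Line4 control. The last pair overlapped and differed by 0.0074 cycles (two-sided exact permutation test, p = 1.0), whereas the other neighbours did not overlap (p = 0.1 each, the smallest that 3 against 3 replicates allow).

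*PEX11.4* was detected earlier than *PEX11.3* in every group, and its pattern over the groups was another. Its replicates had a Ct of 27.13, 27.16 and 27.15 in the Misr2 control, and of 28.25, 28.26 and 28.05 in stressed Misr2. In the Line4 control they had 27.23, 27.28 and 27.16, and in stressed Line4 26.18, 26.40 and 26.36. The controls of both genotypes overlapped only at 27.16 cycles, stressed Misr2 was the lowest in template and stressed Line4 the highest. The wells of Line4 were more scattered than those of Misr2. They spanned 0.732 cycles in the control and 0.779 under stress, compared with 0.285 and 0.326 in Misr2.

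**Figure D1:**
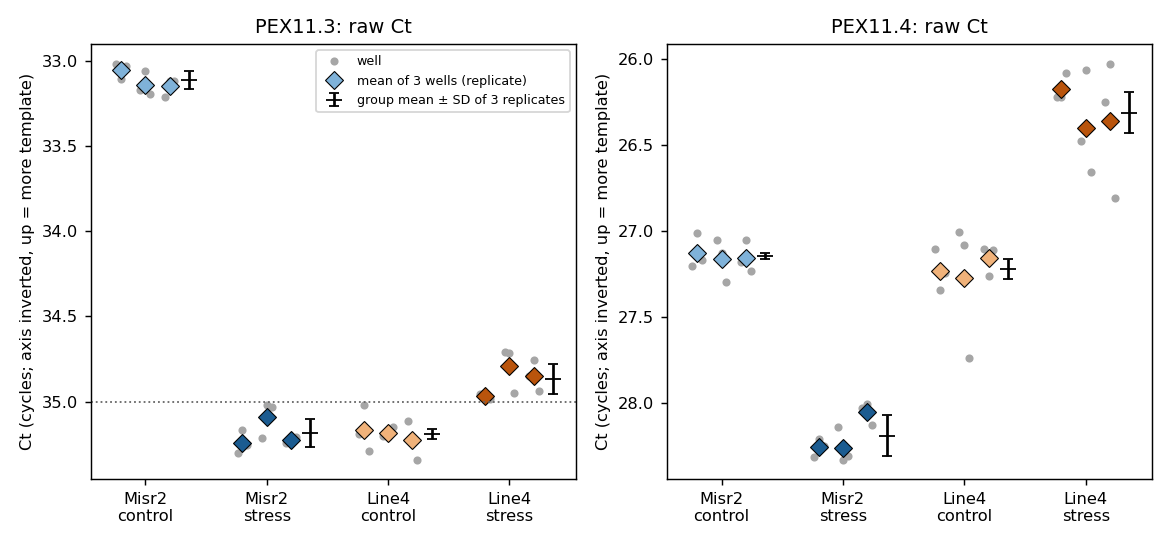
Raw Ct in cycles (vertical axis, inverted) of *PEX11.3* (left) and *PEX11.4* (right) in the 4 groups. Grey points are the 9 wells, diamonds the means of 3 wells, and bars the group mean ± SD of 3 replicates, with a dotted line at 35 cycles. The Misr2 control stands apart for *PEX11.3* at a mean of 33.11 cycles, as it also does for the mean of the 6 other targets (29.26 cycles, not shown). For *PEX11.4* the means of both controls are 0.0744 cycles apart and stressed Line4 lies highest at 26.31 cycles.

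The *PEX11.4* template of stressed Misr2 was 1.04 log2 units below its control (log2 change −1.04, limma, SE 0.076, adjusted p = 1.81e-10), its mean Ct moving from 27.15 ± 0.017 (SD, n = 3) to 28.19 ± 0.118 (SD, n = 3). In Line4 it rose by 0.91 log2 units (limma, SE 0.076, adjusted p = 2.47e-09), from a mean Ct of 27.22 ± 0.059 (SD, n = 3) to 26.31 ± 0.120 (SD, n = 3). Replicates of stress and control did not overlap in either genotype (two-sided exact permutation test, p = 0.1 each, the smallest possible). The difference between the changes was −1.95 log2 units (limma, SE 0.107, adjusted p = 3.85e-12). Of the 8 targets, 100% passed in Misr2, 75% in Line4 and 87.5% for this difference.

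Without stress, the genotypes did not differ detectably in the raw Ct of *PEX11.4*. The log2 difference of Line4 from Misr2 was −0.07 (95% confidence interval −0.23 to 0.09, limma adjusted p = 0.339). The replicates overlapped only at 27.16 cycles (p = 0.2 in the two-sided exact permutation test). *PEX11.4* was the 1 target of the 8 that did not pass the threshold in this comparison. Under stress, Line4 had 1.88 log2 units more *PEX11.4* template than Misr2 (limma, SE 0.076, adjusted p = 1.09e-13), a comparison in which 87.5% of the targets passed. On raw Ct, the genotypes were thus 2.08 cycles apart in *PEX11.3* and 0.0744 in *PEX11.4* without stress, and 0.316 and 1.88 cycles apart under stress.

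In Line4, *PEX11.3*, *PEX11.4* and *CAT*, the catalase gene, were the targets that passed the threshold with more template under stress, 3 of 8 (37.5%). Of the 4 peroxisome division genes of the panel, *PEX11.3*, *PEX11.4*, *FIS1A* and *DRP5B*, all 4 fell in Misr2, where 100% of the 8 targets did. In Line4 the PEX11 genes rose while *FIS1A* (log2 change −1.45, limma adjusted p = 9.98e-13) and *DRP5B* (log2 change −0.55, limma adjusted p = 2.63e-07) fell. Of the 8 targets, 37.5% passed the threshold with less template there.

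**Figure D2:**
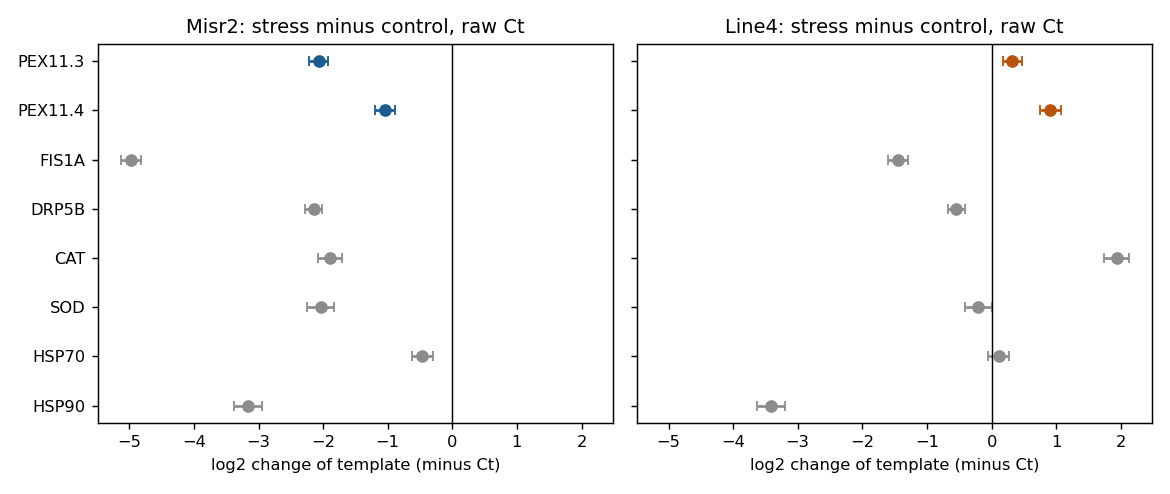
Log2 change of template under stress (horizontal axis, minus the change in raw Ct) for the 8 targets in Misr2 (left) and Line4 (right). Points are limma estimates from 3 replicates per group, bars their 95% confidence intervals, and the PEX11 genes are coloured. Every target lies below 0 in Misr2, while *PEX11.3* (0.32) and *PEX11.4* (0.91) lie above 0 in Line4.

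The Ct difference between the PEX11 genes, Ct of *PEX11.3* minus Ct of *PEX11.4*, needs no reference gene. Unequal cDNA cancels in it only where both genes were run on the same cDNA, which was not stated. It also cancels only as far as both primer pairs amplify with the same efficiency. This Ct difference was used as the measure of the balance of the PEX11 genes, a larger difference meaning less *PEX11.3* template for each unit of *PEX11.4*. The primers may differ in efficiency and the products in fluorescence, so the difference within 1 group is no ratio of transcripts, and only its changes between groups were compared. The changes of template ratio that they stand for depend on the efficiencies as well. The change under stress in Misr2 is 1.03 as a log2 ratio of *PEX11.4* to *PEX11.3* template at a factor of 2 per cycle. With an amplification factor of 1.8 for *PEX11.3* it was 0.715. Replicates of the genes were matched by their position in the well order.

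The balance moved away from *PEX11.3* under stress in both genotypes. The Ct difference of the replicates was 5.93, 5.98 and 6.0 cycles in the Misr2 control and 6.99, 6.83 and 7.17 cycles in stressed Misr2. In Line4 it was 7.94, 7.91 and 8.06 cycles in the control and 8.79, 8.39 and 8.49 cycles under stress. The 4 groups did not overlap, and their order was the Misr2 control, stressed Misr2, the Line4 control and stressed Line4 (two-sided exact permutation test, p = 0.1 for each pair of groups, the smallest possible).

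**Figure D3:**
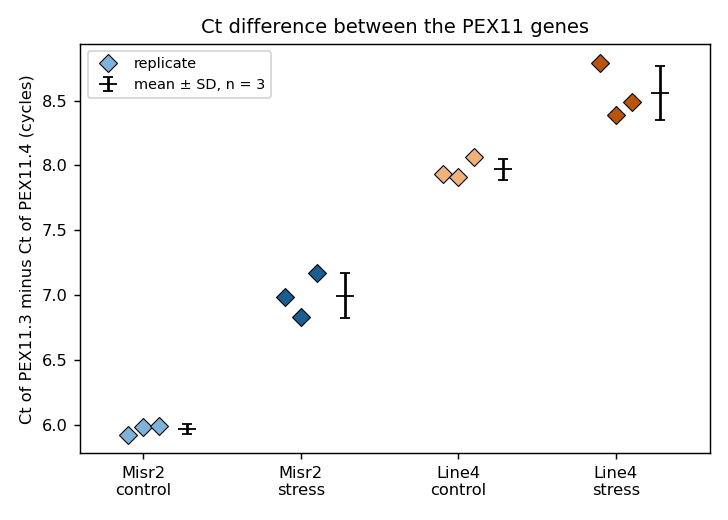
Ct of *PEX11.3* minus Ct of *PEX11.4* in cycles (vertical axis) in the 4 groups. Diamonds are the 3 replicates of a group and bars the mean ± SD (n = 3). The group means rise from 5.97 cycles in the Misr2 control to 7.0, 7.97 and 8.56 cycles, and no groups overlap.

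In Misr2 the Ct difference widened from 5.97 ± 0.038 to 7.0 ± 0.171 cycles (SD, n = 3 each), by 1.03 cycles (limma, SE 0.119, adjusted p = 2.16e-09 over the 28 pairs of targets). At full efficiency the ratio of *PEX11.3* to *PEX11.4* template was then 0.490 times that of the control (95% confidence interval 0.414 to 0.580). In Line4 it widened from 7.97 ± 0.082 to 8.56 ± 0.209 cycles (SD, n = 3 each), by 0.586 cycles (limma, SE 0.119, adjusted p = 3.42e-05), a ratio of 0.666 times the control (95% confidence interval 0.563 to 0.788). The pairs share genes, so p-values that pool the spread over the pairs can be too small. With the own spread of the PEX11 pair, the adjusted p was 3.94e-05 in Misr2 and 0.00118 in Line4 (limma without moderation). Of the 28 pairs, 23 passed in Misr2 (82.1%) and 27 in Line4 (96.4%). Among their absolute changes, that of the PEX11 pair was number 18 in Misr2 and number 24 in Line4, so most pairs of targets changed by more than these genes did.

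The balance also differed between the genotypes, with and without stress. The Ct difference was 2.00 cycles larger in the Line4 control than in the Misr2 control (limma, SE 0.119, adjusted p = 2.15e-16), a ratio 0.249 times as high (95% confidence interval 0.211 to 0.295). In stressed plants it was 1.56 cycles larger in Line4 (limma, SE 0.119, adjusted p = 1.86e-13). With the own spread of the PEX11 pair, the adjusted p was 3.09e-07 between the controls and 2.86e-06 between the stressed genotypes (limma without moderation). In these comparisons 89.3% and 92.9% of the 28 pairs passed.

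Misr2 exceeded Line4 in this widening by 0.443 cycles (limma, SE 0.168, adjusted p = 0.0155), a comparison in which 89.3% of the pairs passed. With the own spread of the PEX11 pair, the adjusted p was 0.032 (limma without moderation). The larger widening in Misr2 is the least certain of the balance results. As a log2 ratio of template, this difference was 0.0793 (limma adjusted p = 0.63) with an amplification factor of 1.8 per cycle for *PEX11.3* in place of 2. With that factor for *PEX11.4* it was 0.740. PCR efficiencies were not given in the sources used here.

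Against the other targets, *PEX11.4* mostly gained and *PEX11.3* did not do so uniformly. With each other target taken as the partner in turn, *PEX11.4* rose against 6 of its 7 partners under stress in Misr2 and against 6 of 7 in Line4, beside 82.1% and 96.4% of all pairs called in either direction. The exception in Misr2 was *HSP70*, a chaperone gene, with −0.58 log2 units (limma, SE 0.113, adjusted p = 2.22e-05). In Line4 it was *CAT*, with −1.03 log2 units (limma, SE 0.122, adjusted p = 2.99e-09). These were the targets whose raw log2 change lay above that of *PEX11.4*, −0.46 for *HSP70* in Misr2 and 1.94 for *CAT* in Line4. The 7 comparisons of a genotype share the *PEX11.4* values, so their count restates this order and is no separate evidence. The largest gains of *PEX11.4* were 3.93 log2 units against *FIS1A* in Misr2 and 4.33 against *HSP90* in Line4, each the partner that lost most template in that genotype.

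*PEX11.3* in Misr2 rose against 2 of 7 partners and fell against 2, and 3 did not pass. It rose by 2.90 log2 units against *FIS1A* and by 1.09 against *HSP90*, and fell by 1.61 against *HSP70* and by 1.03 against *PEX11.4*. Its log2 changes against *DRP5B* (0.08, limma adjusted p = 0.507), *SOD* (−0.03, limma adjusted p = 0.777) and *CAT* (−0.18, limma adjusted p = 0.176) were within their error, with an SE of 0.108 to 0.121. In Line4, *PEX11.3* rose against 4 of 7 partners, *FIS1A*, *DRP5B*, *SOD* and *HSP90*, by 0.53 to 3.74 log2 units. It fell against *PEX11.4* and *CAT*, and its change against *HSP70* (0.21, limma adjusted p = 0.0727) did not pass.

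**Figure D4:**
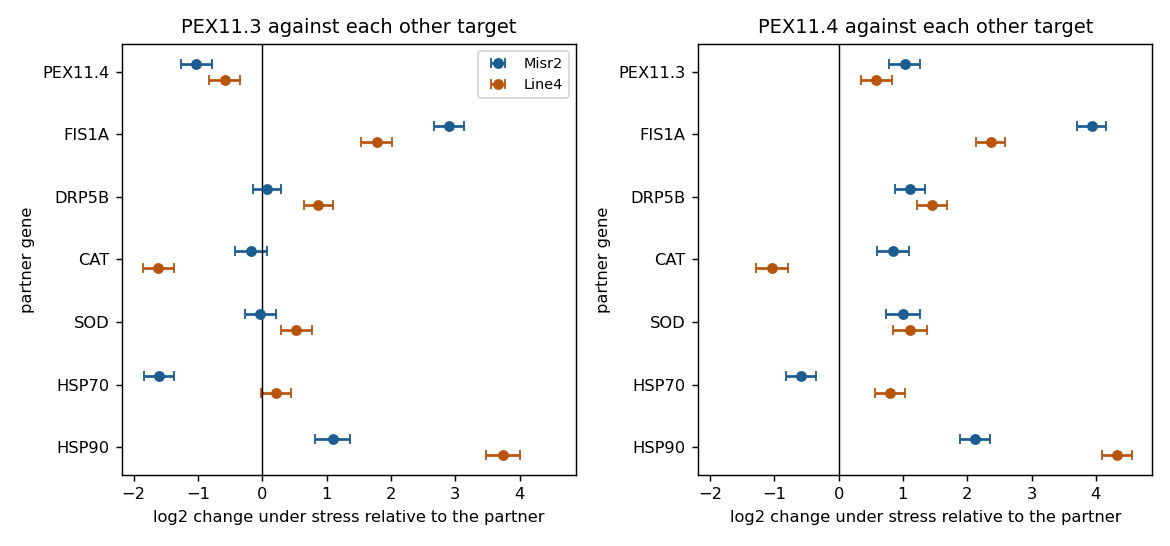
Log2 change under stress of *PEX11.3* (left) and *PEX11.4* (right) relative to each of the 7 other targets (vertical axis), in Misr2 (blue) and Line4 (orange). Points are limma estimates of the change in Ct difference from 3 replicates per group and bars their 95% confidence intervals. *PEX11.4* lies above 0 for 6 of 7 partners in each genotype, with *HSP70* below 0 in Misr2 and *CAT* below 0 in Line4.

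The direction of the change in Misr2 therefore depended on what it was measured against. The mean Ct of the 6 other targets rose by 2.45 cycles under stress in Misr2 and by 0.595 cycles in Line4. Relative to that mean, *PEX11.3* rose by 0.38 log2 units in Misr2 (limma, SE 0.082, adjusted p = 2.36e-05) and by 0.92 in Line4 (limma, SE 0.082, adjusted p = 1.69e-16). *PEX11.4* rose by 1.40 log2 units in Misr2 (limma, SE 0.081, adjusted p = 2.21e-25) and by 1.5 in Line4 (limma, SE 0.081, adjusted p = 5.61e-27). The 6 other targets were chosen by the study as stress-responsive or peroxisomal genes, and their mean is no measure of constant expression. All genes share the subtracted mean, so these p-values, which pool the spread over the genes, are too small. With each gene's own spread, a setting chosen after seeing the data, the adjusted p in Misr2 was 0.00104 for *PEX11.3* and 5.77e-08 for *PEX11.4*, and in Line4 2.06e-06 and 3.36e-08 (limma without moderation).

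On this scale the genotypes differed in *PEX11.3*, whose change in Misr2 was −0.54 log2 units from that in Line4 (limma, SE 0.115, adjusted p = 2.27e-05, and 0.00108 with its own spread). For *PEX11.4* the difference of −0.10 log2 units did not pass the threshold (95% confidence interval −0.33 to 0.13, limma adjusted p = 0.444). Relative to the 6 other targets, *PEX11.4* was 2.13 log2 units higher in the Line4 control than in the Misr2 control (limma, SE 0.081, adjusted p = 1.64e-35, and 2.74e-09 with its own spread), whereas *PEX11.3* differed by 0.13 (95% confidence interval −0.04 to 0.29, limma adjusted p = 0.126). In stressed plants, Line4 exceeded Misr2 relative to the 6 other targets by 0.67 log2 units in *PEX11.3* (limma adjusted p = 2.32e-11, and 2.23e-05 with its own spread) and by 2.23 in *PEX11.4* (limma adjusted p = 3.32e-36, and 4.46e-09 with its own spread), compared with 0.32 and 1.88 on raw Ct. On raw Ct it had been *PEX11.3* that differed between the controls, so which PEX11 gene separated them changed with the reference, while the Ct difference between the genes does not contain it.

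The target whose Ct moved most like that of *PEX11.3* over the 12 replicate means was *SOD*, the superoxide dismutase gene, with an SD of the Ct difference of 0.228 cycles and a Pearson r of 0.968 across the 4 groups. For *PEX11.4* it was *HSP70*, with an SD of 0.395 cycles and r of 0.880. The PEX11 genes were less alike than this, with an SD of 1.04 cycles and r of 0.182. These values describe 4 groups of 3 replicates, matched between genes by well order. Whether matched replicates share their cDNA was not stated, and where they do, unequal input moves all their genes together. The SD of the PEX11 Ct difference was 0.038 cycles in the Misr2 control, beside 0.057 if the genes varied independently. It was 0.171 beside 0.145 in stressed Misr2, 0.082 beside 0.065 in the Line4 control and 0.209 beside 0.150 in stressed Line4.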

How the data were processed

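Leaves of 4 groups were assayed with SYBR Green and 40 cycles. The authors deposited non-normalized Ct values of 8 target genes, well by well. A second deposited table holds their own comparisons, as ratios of stress to control after scaling to *Actin-7*, and was not used. Threshold settings were not given in the sources used here. A Ct has no count behind it, and its precision is given by the spread of 3 replicates.

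Successive sets of 3 wells were taken as replicates, an order that the deposited table does not state. Wells were averaged, and −Ct of the 8 genes and the Ct differences of their 28 pairs entered linear models (R 4.3.3, limma 3.58.1) that gave each group its own mean and the 4 groups a shared spread. For each of 5 contrasts, Benjamini-Hochberg adjustment covered the 8 genes or the 28 pairs, and the threshold was an adjusted p of 0.05. The pairs share genes, so their moderated spread rests on fewer independent values than their number. Exact permutation tests were run with Python 3.11.15 and scipy 1.17.1. The model was tested on simulated data.

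The genes named are the PEX11 genes in full, the other targets as their partners, and for each PEX11 gene the target with the smallest SD of the Ct difference. Genes, contrasts and alternatives were chosen with earlier results of these data known. Alternatives were other summaries and groupings of wells, a replicate block, unmoderated variances, separate fits, late wells left out, other references, unadjusted p-values, an amplification factor of 1.8, and each replicate left out.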

Additional observations from a re-analysis of the deposited data

Results flagged for a closer look

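The response to stress differed between the genotypes by the test of the difference itself for *PEX11.3* on raw Ct, where the change in Misr2 minus that in Line4 was −2.39 log2 units (limma adjusted p = 3.69e-14). It differed for *PEX11.4* on raw Ct by −1.95 log2 units (limma adjusted p = 3.85e-12), but by −0.10 relative to the mean of the 6 other targets (limma adjusted p = 0.444) and by −0.019 relative to that of the 8 targets (limma adjusted p = 0.859), where it did not pass the threshold. The response also differed for the Ct difference between the genes by 0.443 cycles (limma adjusted p = 0.0155), and for *PEX11.3* relative to the mean of the 6 other targets by −0.54 log2 units (limma adjusted p = 2.27e-05). The mean Ct of the 6 other targets rose under stress as well, in Misr2 by 2.45 and in Line4 by 0.595 cycles, and the values relative to that mean are the differences left once it is subtracted.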

How the results depend on the processing

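All 5 comparisons of the Ct difference between the PEX11 genes kept their direction and passed the threshold under every alternative that gave a value, except 1. The larger widening in Misr2 was 0.0793 as a log2 ratio of template with a factor of 1.8 for *PEX11.3* (limma adjusted p = 0.63). It was 0.355 to 0.561 cycles with each replicate left out. The widening itself was 0.941 to 1.11 cycles in Misr2 and 0.468 to 0.669 cycles in Line4 with each replicate left out. The raw levels turned with the reference. With the mean of the 6 other targets, the changes in Misr2 were 0.38 for *PEX11.3* and 1.40 for *PEX11.4*, and the differences between the controls were 0.13 and 2.13. With the mean of the 8 targets they were 0.15 (limma adjusted p = 0.0649), 1.18, −0.16 (limma adjusted p = 0.0705) and 1.85, and the difference between genotypes in the *PEX11.4* change was −0.019 (−0.10 with the 6 targets). The median of the wells gave 0.013 in place of −0.07 for *PEX11.4* between the controls, neither past the threshold. With wells above 35 cycles left out, *PEX11.3* had no value in stressed Misr2 and the Line4 control, so none of its comparisons could be made. The number of pairs called was then 15 of 15 tested for stress in Line4, 14 of 15 between the stressed genotypes and 12 of 15 for the difference between genotypes, with fewer pairs tested. The replicate block by well position, a pairing that the labels do not give, changed no call, with 0.443 cycles for the difference in widening (limma adjusted p = 0.0176). Without moderation, an alternative added after seeing the data for the values relative to the 6 other targets, every call on that scale was kept. The p-values of the comparisons that passed were larger. Those that did not pass had smaller ones, 0.115 for *PEX11.3* between the controls and 0.352 for the *PEX11.4* difference between genotypes (limma without moderation, adjusted p).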
